A study of Mus musculus with 12 samples.

Results

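Genes of the hypoxia-inducible factor (HIF) pathway were followed in mpkCCD cells, a mouse cell line that originates from principal cells of the collecting duct. They were selected by gene name from the deposited table. The set holds 5 HIF regulators (Hif1a, Epas1, Egln1, Egln3 and Vhl) and 5 HIF targets outside glycolysis (Vegfa, Bnip3, Ankrd37, Ddit4 and Ndrg1), which makes 10 of 52015 genes used and 10 of the 13414 genes that reached 0.5 FPKM in at least 1 group. FPKM is the number of sequenced fragments scaled by transcript length and by sequencing depth, so that levels of different genes can be set side by side.

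The 12 RNA-seq libraries were made from Nfat5-KO cells, in which CRISPR/Cas9 had disrupted the gene of the osmosensitive transcription factor NFAT5, and from Scr cells, which carried a scramble guide RNA without a target. Both were kept for 5 days at 300 mosmol/kg (isotonic) or at 600 mosmol/kg (hypertonic, made with 100 mM NaCl and 100 mM urea). The knockout libraries came from clones N1 and N3, with 2 libraries per clone at each osmolality, which gave 4 for Nfat5-KO_300 and 4 for Nfat5-KO_600. The control arms Scr_300 and Scr_600 held 2 libraries each. The deposited table holds 1 FPKM value per gene and group, so no spread between libraries or clones can be given, no test was possible, and every difference below is a description of 4 group values. Oxygen was not a variable of the study.

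HIF is a pair of an oxygen-sensitive alpha subunit, HIF-1alpha (Hif1a) or HIF-2alpha (Epas1), and the stable partner ARNT. When oxygen is present, prolyl hydroxylases (the EGLN enzymes, also called PHD) mark the alpha subunit, the VHL ubiquitin ligase binds the marked protein and the proteasome removes it, so that the activity of the pathway is mostly set at the protein and not at the RNA. When the alpha subunit is stable, HIF binds DNA at a short core, written ACGTG or GCGTG, and raises the RNA of its targets, Egln1 and Egln3 among them. The renal medulla is both hypertonic and poor in oxygen, so its cells meet both conditions at once.

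The promoters of the targets show whether the HIF core is present near the start of genes with different patterns. RefSeq (GRCm38.p6) gave promoters of 8 of the 10 genes, with no entry for Epas1 and Ndrg1. The stretches below lie within 250 bases before the start site, hold no annotated exon and are on the minus strand, 5′ to 3′ in the direction of the gene. Capitals mark the HIF core on either strand. On the opposite strand the cores read CACGT and CACGC, and the palindrome CACGTG holds ACGTG on both strands. The Bnip3 stretch is chr7:138909520-138909756, that of Ankrd37 is chr8:45999868-46000100, that of Ddit4 is chr10:59951835-59952020, that of Egln3 is chr12:54203875-54204124, and that of Vegfa, from the first of its 2 listed start sites, is chr17:46032378-46032627.
Bnip3: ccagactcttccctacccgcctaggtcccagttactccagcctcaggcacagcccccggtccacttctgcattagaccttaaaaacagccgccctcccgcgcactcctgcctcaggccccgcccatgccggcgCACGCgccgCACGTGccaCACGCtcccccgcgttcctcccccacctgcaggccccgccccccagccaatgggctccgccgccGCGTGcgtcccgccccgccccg
Ankrd37: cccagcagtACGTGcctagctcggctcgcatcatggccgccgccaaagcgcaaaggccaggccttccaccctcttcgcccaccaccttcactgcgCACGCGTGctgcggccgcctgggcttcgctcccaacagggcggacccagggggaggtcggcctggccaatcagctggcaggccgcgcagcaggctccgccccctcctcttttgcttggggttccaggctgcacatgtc
Ddit4: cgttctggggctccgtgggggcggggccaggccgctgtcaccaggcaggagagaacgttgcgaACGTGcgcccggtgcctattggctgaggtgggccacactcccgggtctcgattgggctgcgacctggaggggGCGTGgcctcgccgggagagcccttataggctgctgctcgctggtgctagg
Egln3: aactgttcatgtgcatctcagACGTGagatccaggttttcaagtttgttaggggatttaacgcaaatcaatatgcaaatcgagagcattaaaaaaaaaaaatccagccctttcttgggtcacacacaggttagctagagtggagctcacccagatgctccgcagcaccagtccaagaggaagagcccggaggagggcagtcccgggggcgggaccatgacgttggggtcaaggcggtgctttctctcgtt
Vegfa: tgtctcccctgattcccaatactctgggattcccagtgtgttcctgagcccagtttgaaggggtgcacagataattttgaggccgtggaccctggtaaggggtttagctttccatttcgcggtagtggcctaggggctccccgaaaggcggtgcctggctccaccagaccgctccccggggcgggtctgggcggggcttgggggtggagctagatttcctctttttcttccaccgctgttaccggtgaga

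Bnip3 had the most crowded stretch, with CACGTG from position -108 and GCGTG at -117, -99 and -35, all counted from the start site. Ankrd37 had ACGTG at -241 and at -6, the latter in annotated exon and so not printed, and a pair of overlapping GCGTG cores on opposite strands at -155 and -152. Ddit4 had ACGTG at -187 and GCGTG at -115, Egln3 had ACGTG at -229, and Egln1 had ACGTG at -68, in annotated exon, and GCGTG at -126. No core was found in the first Vegfa promoter or in the Vhl promoter, while the second Vegfa promoter held ACGTG at -211 and GCGTG at -218, both within annotated Vegfa exon. Of the 9 promoters of the 8 genes, 7 held ACGTG or GCGTG, beside 43.8% of all 32851 promoters of the same length. The 9 promoters were 54.7% to 86.0% G or C, and the share over all promoters was not matched for base composition. CACGTG was in the promoters of Hif1a and Bnip3 and in 7.15% of all. The tonicity element, the motif that NFAT5 binds, was searched by its consensus on both strands and was found in 1 of the 9 promoters, that of Hif1a at -241, and in 4.96% of all promoters. A match shows only that these letters stand in this window. Sequence farther from the start was not searched, so a promoter without a core may have one outside the window.

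In GRCm38 (GENCODE M21) the genes lie at chr12:73901375-73947530 (Hif1a, plus strand), chr17:86753700-86833410 (Epas1, plus), chr8:124908587-124949324 (Egln1, minus), chr12:54178981-54203860 (Egln3, minus), chr6:113623959-113631633 (Vhl, plus), chr17:46016993-46032369 (Vegfa, minus), chr7:138890836-138909519 (Bnip3, minus), chr8:45996902-46005707 (Ankrd37, minus), chr10:59949669-59951834 (Ddit4, minus) and chr15:66929318-66969640 (Ndrg1, minus). All are protein coding, and values are over their exons. All 10 genes passed the 0.5 FPKM filter, but their levels were far apart. In Scr_300 the order was Ddit4 (34.6 FPKM), Bnip3 (33.5 FPKM), Egln1 (33.1 FPKM), Ndrg1 (24.2 FPKM), Hif1a (16.8 FPKM), Ankrd37 (9.72 FPKM), Vhl (9.68 FPKM), Egln3 (9.44 FPKM), Vegfa (3.43 FPKM) and Epas1 (0.545 FPKM). Whether neighbours in this order differed beyond the spread of the libraries is unknown, since no spread can be computed. The highest of the 4 group values exceeded the lowest 6.04-fold for Vegfa, 5.41-fold for Bnip3, 3.90-fold for Ankrd37, 3.86-fold for Egln3, 3.56-fold for Ndrg1, 2.62-fold for Ddit4, 2.07-fold for Epas1, 1.95-fold for Egln1, 1.497-fold for Hif1a and 1.08-fold for Vhl. In 9 of the 10 genes the highest value was that of a Scr group, as it was for 46.1% of all genes, and in 6 of the 10 the lowest value was that of Nfat5-KO_600, as it was for 32.8% of all genes.

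**Figure D1:**
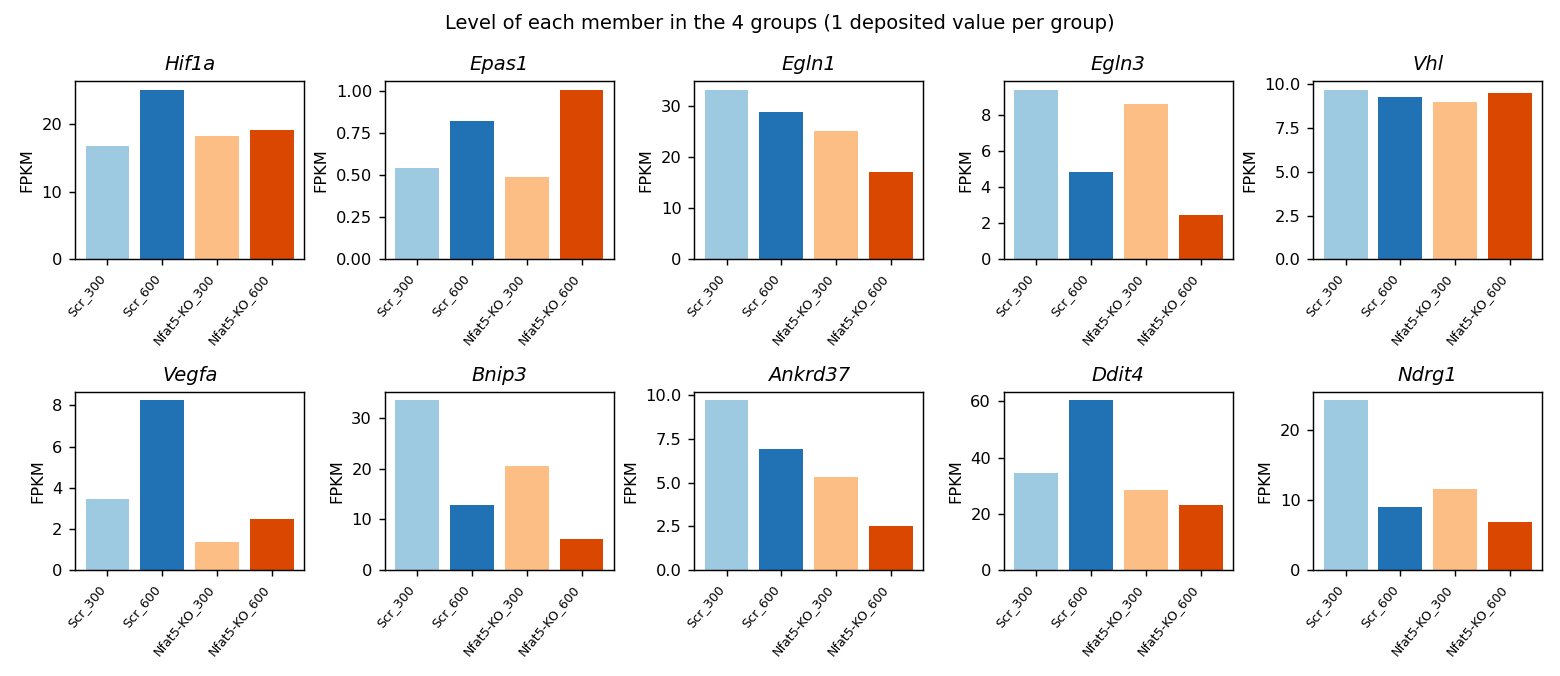
FPKM (vertical axes, from 0, each panel with its own scale) of the 10 genes in the 4 groups, 1 bar per deposited group value and no error bar because no value per library was used. Bnip3, Egln1, Egln3, Ankrd37 and Ndrg1 are highest in Scr_300 and lowest in Nfat5-KO_600. Vegfa, Ddit4 and Hif1a are highest in Scr_600, and Vhl stays between 8.97 and 9.68 FPKM.

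Among the regulators, Hif1a, the broadly expressed oxygen-sensitive subunit, was the main alpha subunit at the RNA level. Its level was 16.8 and 25.1 FPKM in Scr_300 and Scr_600, against 18.2 and 19.2 FPKM in Nfat5-KO_300 and Nfat5-KO_600. Scr_600 stood above the other groups, and the 2 Nfat5-KO values were close together. The log2 ratio of hypertonic to isotonic was 0.58 in Scr and 0.07 in Nfat5-KO cells, where log2 ratios here and below are of FPKM + 0.1, which understates the differences of low genes.

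Epas1, the alpha subunit known best from endothelium and from the cells that make erythropoietin, was near the filter. It had 0.545 and 0.821 FPKM in Scr_300 and Scr_600, against 0.488 and 1.01 FPKM in Nfat5-KO_300 and Nfat5-KO_600. Both hypertonic values were above both isotonic ones, with log2 ratios of 0.52 in Scr and 0.91 in Nfat5-KO cells. At the RNA level Hif1a exceeded Epas1 30.8-fold in Scr_300, 30.6-fold in Scr_600, 37.4-fold in Nfat5-KO_300 and 19.1-fold in Nfat5-KO_600.

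Egln1 encodes PHD2, the main oxygen sensor of the pathway. It had 33.1 and 28.7 FPKM in Scr_300 and Scr_600, against 25.0 and 17.0 FPKM in Nfat5-KO_300 and Nfat5-KO_600. Both Nfat5-KO values were below both Scr values, and the knockout stood at a log2 ratio to Scr of -0.41 at 300 and -0.75 at 600 mosmol/kg.

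Egln3 encodes PHD3, a hydroxylase whose RNA is strongly induced by HIF. It had 9.44 and 4.86 FPKM in Scr_300 and Scr_600, against 8.61 and 2.45 FPKM in Nfat5-KO_300 and Nfat5-KO_600. Here osmolality divided the groups, since both hypertonic values lay below both isotonic ones. Genotype differed too, with log2 ratios of Nfat5-KO to Scr of -0.13 at 300 and -0.96 at 600 mosmol/kg. The log2 ratio of hypertonic to isotonic was -0.94 in Scr and -1.77 in Nfat5-KO cells, and only 0.739% of all genes lay below Egln3 in the latter comparison. Egln1 exceeded Egln3 3.51-fold in Scr_300, 5.90-fold in Scr_600, 2.90-fold in Nfat5-KO_300 and 6.95-fold in Nfat5-KO_600.

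Vhl, the substrate receptor of the ubiquitin ligase, was the flattest of the 10 genes. It had 9.68 and 9.27 FPKM in Scr_300 and Scr_600, against 8.97 and 9.47 FPKM in Nfat5-KO_300 and Nfat5-KO_600, and its 4 log2 ratios lay between -0.11 and 0.08.

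The 5 targets shared lower values in Nfat5-KO than in Scr cells at both osmolalities, although their hypertonic values lay on different sides of the isotonic ones. Vegfa encodes vascular endothelial growth factor A, a secreted factor that keeps capillaries alive. It had 3.43 and 8.25 FPKM in Scr_300 and Scr_600, against 1.37 and 2.47 FPKM in Nfat5-KO_300 and Nfat5-KO_600. Both Nfat5-KO values were below both Scr values, while the hypertonic value was above the isotonic one in each genotype. Nfat5-KO was 2.41-fold lower than Scr at 300 mosmol/kg (log2 ratio -1.27) and 3.24-fold lower at 600 mosmol/kg (log2 ratio -1.70), and 1.47% and 1.35% of all genes lay below it.

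Bnip3 encodes a mitochondrial protein of the BCL2 family that takes part in mitophagy. It had 33.5 and 12.8 FPKM in Scr_300 and Scr_600, against 20.5 and 6.20 FPKM in Nfat5-KO_300 and Nfat5-KO_600. Osmolality gave the larger step, with log2 ratios of hypertonic to isotonic of -1.38 in Scr and -1.71 in Nfat5-KO cells, and at each osmolality the Nfat5-KO value was the lower one, with log2 ratios of -0.71 at 300 and -1.04 at 600 mosmol/kg. A processed pseudogene 92.9% identical to Bnip3 over 505 bases was at 0 FPKM in all 4 groups. An antisense gene that shares 22.3% of the Bnip3 exon bases was also at 0. Whether reads in the shared bases were counted for Bnip3 is unknown, since strand use in the counting is not given.

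Ankrd37 encodes an ankyrin repeat protein and is known mainly as a HIF target. It had 9.72 and 6.92 FPKM in Scr_300 and Scr_600, against 5.31 and 2.49 FPKM in Nfat5-KO_300 and Nfat5-KO_600. Both Nfat5-KO values were below both Scr values, with log2 ratios of -0.86 at 300 and -1.43 at 600 mosmol/kg. Its value carries some uncertainty because Ufsp2 and Lrp2bp on the opposite strand share 3.7% and 22.7% of its exon bases, and strand use in the counting is not given in the sources used here. Lrp2bp reached no more than 0.0845 FPKM, and Ufsp2 had 14.1 and 11.0 FPKM in Scr_300 and Scr_600, against 13.9 and 10.7 FPKM in Nfat5-KO_300 and Nfat5-KO_600.

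Ddit4 encodes REDD1, a stress-induced inhibitor of mTORC1 signalling. It had 34.6 and 60.4 FPKM in Scr_300 and Scr_600, against 28.6 and 23.0 FPKM in Nfat5-KO_300 and Nfat5-KO_600. Scr_600 stood apart from the other groups, and the direction under hypertonicity was opposite in the 2 genotypes, with log2 ratios of 0.80 in Scr and -0.31 in Nfat5-KO cells. Nfat5-KO was 1.21-fold lower than Scr at 300 mosmol/kg and 2.61-fold lower at 600 mosmol/kg.

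Ndrg1 encodes a cytoplasmic protein induced by hypoxia, differentiation and metal chelation. It had 24.2 and 9.01 FPKM in Scr_300 and Scr_600, against 11.6 and 6.79 FPKM in Nfat5-KO_300 and Nfat5-KO_600. Scr_300 stood above the other groups. Its genotype ratio was larger at 300 mosmol/kg (log2 ratio -1.06) than at 600 mosmol/kg (log2 ratio -0.40), the reverse of the other 4 targets.

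Under isotonic conditions, Nfat5-KO_300 was compared with Scr_300. The knockout cells were clones, so loss of NFAT5 and other differences of the clones cannot be told apart at either osmolality. Of the 10 genes, 9 were lower and 4 were at least 1.5-fold lower (Vegfa, Ndrg1, Ankrd37 and Bnip3, all targets), where 6.21% of the 12704 genes compared were at least 1.5-fold lower. None was at least 1.5-fold higher, beside 5.27% of all genes. The median log2 ratio was -0.34 for the 10 genes, -0.13 for the 5 regulators and -0.86 for the 5 targets, and -0.00 for all genes, of which 50.2% were lower.

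Under hypertonic conditions, Nfat5-KO_600 was compared with Scr_600. Of the 10 genes, 6 were at least 1.5-fold lower (Vegfa, Ankrd37, Ddit4, Bnip3, Egln3 and Egln1), where 9.44% of the 13063 genes compared were, and none was at least 1.5-fold higher, where 9.84% were. The median log2 ratio was -0.86 for the 10 genes, -0.39 for the regulators and -1.39 for the targets, beside -0.02 for all genes. All 5 targets and 2 of the 5 regulators were lower in Nfat5-KO cells at both osmolalities, against 33.6% of the 12353 genes that could be compared at both. In a second list of HIF targets, described below, 12 of 22 (54.5%) were lower at both. The 10 genes were chosen with earlier results of these data known.

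The effect of hypertonicity in control cells was read from Scr_600 and Scr_300. Vegfa and Ddit4 were at least 1.5-fold higher (10.4% of the 12929 genes compared), and Ndrg1, Bnip3 and Egln3 were at least 1.5-fold lower (9.01%). In Nfat5-KO cells, Epas1 and Vegfa were at least 1.5-fold higher (14.1% of the 12982 genes compared), and Egln3, Bnip3, Ankrd37 and Ndrg1 were at least 1.5-fold lower (13.8%). The median of the 10 genes was -0.13 in Scr and -0.43 in Nfat5-KO cells, beside -0.04 for all genes in each. Each group enters 2 of the 4 comparisons, so these are not independent of each other.

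**Figure D2:**
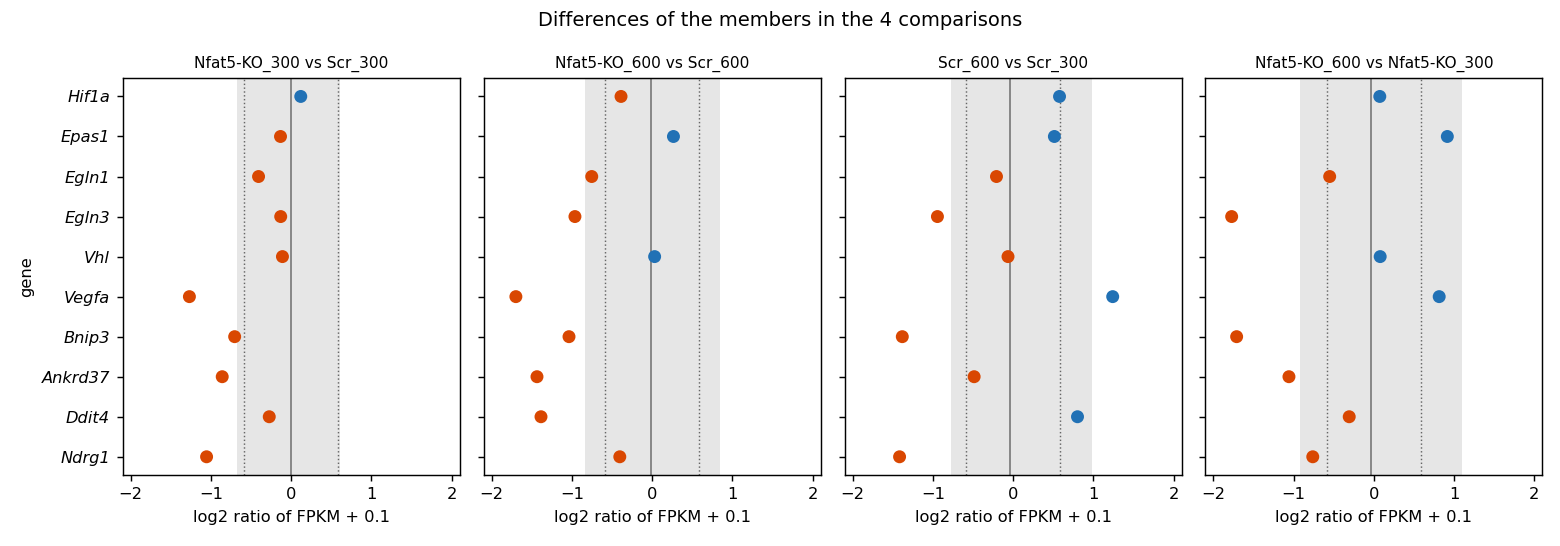
Log2 ratio of FPKM + 0.1 (horizontal axes) of each gene in the 4 comparisons, blue where the first group is higher and orange where it is lower. The grey band runs from the 5th to the 95th percentile of all genes, the solid line is their median and the dotted lines mark 1.5-fold. All 5 targets lie left of 0 in both comparisons of Nfat5-KO with Scr, Vegfa lies at -1.27 and -1.70, and Vhl stays between -0.11 and 0.08 throughout.

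To set the hypertonic response of both genotypes side by side, the log2 ratio in Scr was subtracted from that in Nfat5-KO cells. The difference was -1.11 for Ddit4, -0.83 for Egln3, -0.57 for Ankrd37, -0.51 for Hif1a and -0.43 for Vegfa. It was positive for Ndrg1 (0.65), Epas1 (0.40) and Vhl (0.14). In 7 of the 10 genes it was negative, beside 52.0% of 13414 genes, and the median was -0.39, beside -0.01 for all genes. Ddit4 was the only one of the 10 whose responses had opposite signs and differed by at least 1 log2 unit, as 3.79% of all genes did.

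**Figure D3:**
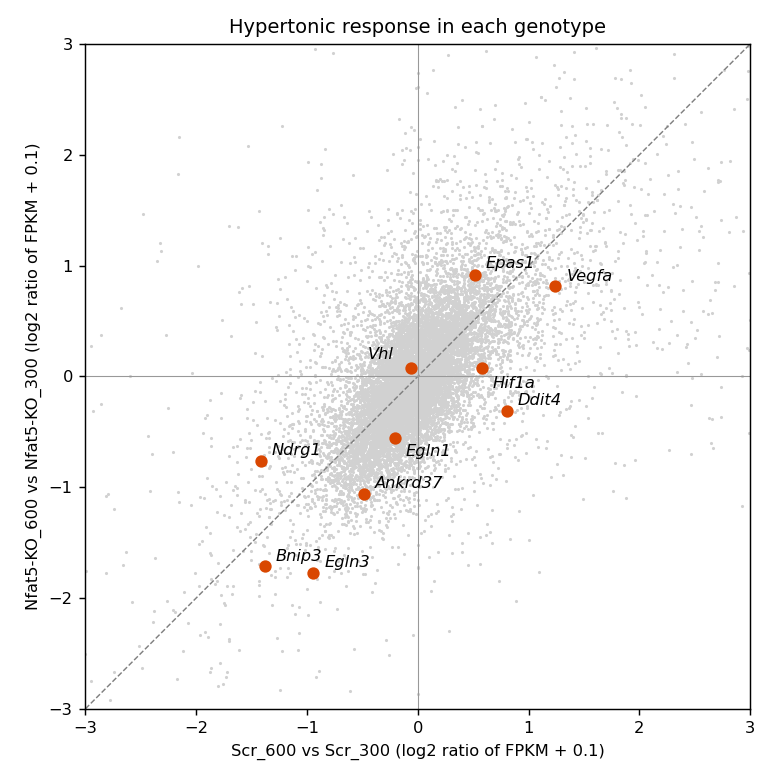
Log2 ratio of hypertonic to isotonic FPKM + 0.1 in Scr (horizontal axis) and in Nfat5-KO cells (vertical axis), with the 10 genes as labelled orange points and in grey all genes that reached 0.5 FPKM in any group (a few beyond 3 log2 units are not drawn). Points below the dashed diagonal have the lower response in Nfat5-KO cells. Ddit4 lies at 0.80 and -0.31, where the response is positive in Scr and negative in Nfat5-KO cells.

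The order of the 4 groups divided the genes in another way. Bnip3, Egln3 and Ndrg1 had the order Scr_300, Nfat5-KO_300, Scr_600, Nfat5-KO_600 from high to low, which 10.6% of all genes had. Egln1 and Ankrd37 had the order Scr_300, Scr_600, Nfat5-KO_300, Nfat5-KO_600, which 5.60% had. The closest profiles among the 10 were those of Egln3 and Bnip3, at a Euclidean distance of 0.45 between centred log2 values over the 4 groups. Of the 2297 genes with at least 1 FPKM and a span of 1 log2 unit, the one nearest to Ddit4 was Snx9 (distance 0.138), to Ankrd37 Osr1 (0.12), to Bnip3 Slc9a4 (0.152), to Egln3 Zfp185 (0.181), to Ndrg1 mt-Tn (0.188) and to Vegfa Lzts3 (0.214). Next in this order came Lurap1l and Snord16a for Ddit4, Epb41l3 and Npr3 for Ankrd37, Pecr and Gm11451 for Bnip3, Tchh and mt-Tt for Egln3, Cth and Mir703 for Ndrg1, and 4930461G14Rik and Rnf186 for Vegfa. These distances rest on 4 values per gene. Poly-T beads selected the RNA for the libraries, so values of the small RNAs mt-Tn, mt-Tt, Snord16a and Mir703 are less certain.

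As a list, the remaining HIF machinery had genotype medians close to those of all genes. Of 17 listed genes, 14 passed the filter. The median of their knockout to Scr log2 ratios was 0.04 at 300 and 0.07 at 600 mosmol/kg, beside -0.00 and -0.02 for all genes. None was at least 1.5-fold lower, beside 6.21% and 9.44% of all genes. At least 1.5-fold higher were 1 and 2 genes, beside 5.27% and 9.84% of all genes. These were Crebbp at both osmolalities (log2 ratios 0.72 and 0.99) and Cited2 at 600 mosmol/kg (0.73), a coactivator of HIF and a protein that competes with HIF for it, named after their values were seen. Arnt, the common partner, had 6.66 and 4.94 FPKM in Scr_300 and Scr_600, against 6.77 and 6.38 FPKM in Nfat5-KO_300 and Nfat5-KO_600. Egln2, the third prolyl hydroxylase, lay between 15.1 and 17.1 FPKM, so that Egln1 exceeded it 2.16-fold in Scr_300 and was level with it in Nfat5-KO_600 (ratio 0.992). Hif1an, the asparagine hydroxylase that blocks the transactivation domain of HIF, lay between 12.9 and 15.0 FPKM. Hif3a and Arnt2 were below 0.1 FPKM in every group.

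The second list of HIF targets outside glycolysis had 30 genes, and 22 or 23 of them, depending on the comparison, passed the filter. At 300 mosmol/kg 19 of 22 had the lower value in the knockout (median log2 ratio -0.38), 4 of them at least 1.5-fold, beside 50.2% and 6.21% of all genes. Another 2 of the 22 were at least 1.5-fold higher, beside 5.27% of all genes. At 600 mosmol/kg 13 of 23 (56.5%) were lower, near the 52.2% of all genes, with a median of -0.10. At least 1.5-fold lower were 4 and at least 1.5-fold higher 4, beside 9.44% and 9.84% of all genes. Most of these are described below. Also among them, and named after their values were seen, were Fam162a (log2 ratio -0.64 at 300 mosmol/kg) and Plod1 (0.61 at 600 mosmol/kg). Hypertonicity gave medians of -0.19 in Scr (15 of 22 lower, beside 54.6% of all genes) and 0.09 in Nfat5-KO cells (10 of 23 lower, beside 52.9%).

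Edn1 and Adm, which encode secreted factors, were among the other targets with the lowest ratios of Nfat5-KO_600 to Scr_600. Secreted targets were not all low, since Angptl4 had a log2 ratio of 1.595 in this comparison. Edn1, which encodes endothelin-1, had 10.5 and 11.4 FPKM in Scr_300 and Scr_600, against 7.42 and 2.85 FPKM in Nfat5-KO_300 and Nfat5-KO_600. Adm, which encodes the vasodilator adrenomedullin, had 1.40, 2.86, 1.04 and 0.833 FPKM in the same order of groups. Both therefore had their lowest value in Nfat5-KO_600, with log2 ratios to Scr_600 of -1.96 and -1.66.

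The collagen-modifying enzymes divided. Plod2, a lysyl hydroxylase, had 18.4, 20.7, 10.9 and 7.68 FPKM in Scr_300, Scr_600, Nfat5-KO_300 and Nfat5-KO_600, with a log2 ratio of Nfat5-KO to Scr of -1.42 at 600 mosmol/kg. P4ha1, a prolyl hydroxylase of collagen, had 32.8, 14.2, 25.9 and 14.6 FPKM in the same order, so that osmolality and not genotype divided its groups. Of the transcriptional repressors, Bhlhe40 had 10.8, 8.48, 9.92 and 3.95 FPKM, and Mxi1, an antagonist of MYC, had 5.18, 4.49, 2.51 and 4.08 FPKM.

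Bnip3l, the paralog of Bnip3 in mitophagy, had 55.0 and 33.1 FPKM in Scr_300 and Scr_600, against 30.2 and 27.5 FPKM in Nfat5-KO_300 and Nfat5-KO_600. Scr_300 stood above the other 3 groups, and the ratio of Bnip3l to Bnip3 was 1.64, 2.58, 1.47 and 4.44 in the same order. Hmox1 and Angptl4 exceeded the Scr_600 value more than 2-fold in Nfat5-KO_600. Hmox1, the inducible heme oxygenase, had 27.1, 25.5, 44.4 and 73.9 FPKM in the same order, and Angptl4, a secreted inhibitor of lipoprotein lipase, had 0.116, 0.382, 0.440 and 1.36 FPKM. Cxcr4 was listed at 0 in every group, and Car9, Ndufa4l2, Lox, Stc2, Ak4 and Epo stayed below 0.1 FPKM.

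**Figure D4:**
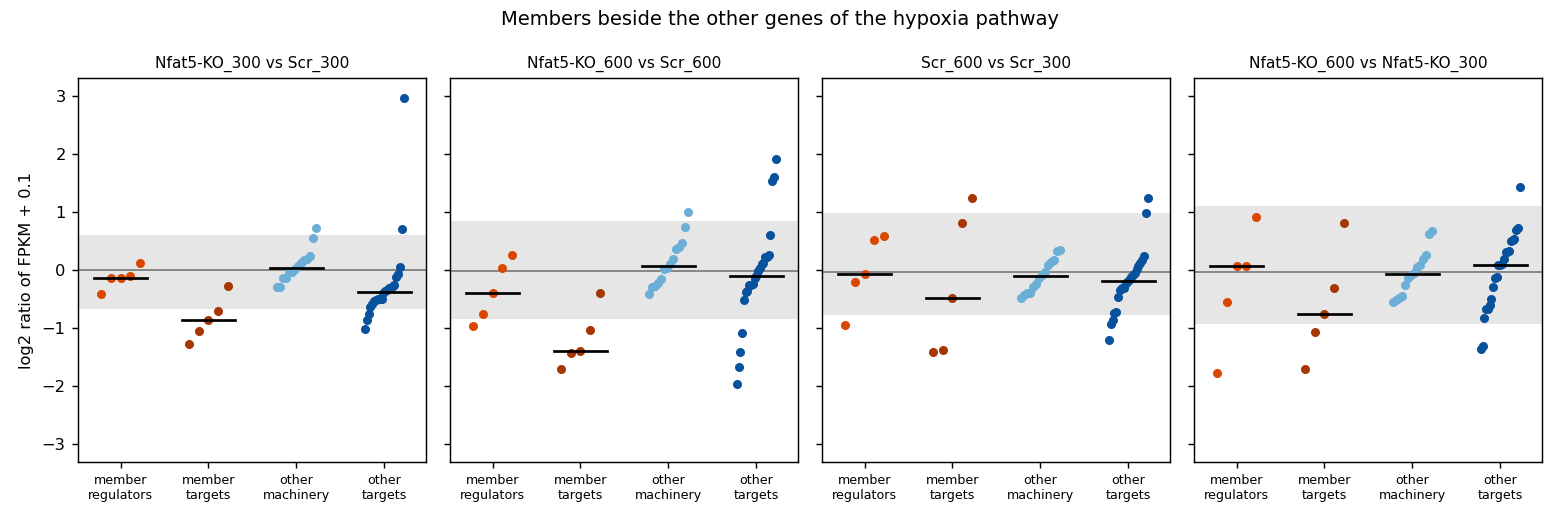
Log2 ratio of FPKM + 0.1 (vertical axis) in the 4 comparisons for the 5 member regulators, the 5 member targets, the other HIF machinery and the other HIF targets, 1 point per gene. Black bars are list medians, the grey band runs from the 5th to the 95th percentile of all genes and the grey line is their median. The member targets have medians of -0.86 and -1.39 in the comparisons of Nfat5-KO with Scr, and the other machinery 0.04 and 0.07.

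The targeted gene, Nfat5, had 5.61 and 7.93 FPKM in Scr_300 and Scr_600, against 3.47 and 6.88 FPKM in Nfat5-KO_300 and Nfat5-KO_600, so its RNA was 1.60-fold and 1.15-fold lower in the knockout. Reads outside an edited site do not show whether the protein is lost. Of 10 principal cell markers, 4 reached 0.5 FPKM. These were Gata3 (3.41 to 30.0 FPKM over the groups), Scnn1a (1.315 to 7.035 FPKM), Aqp3 (2.07 to 2.93 FPKM) and Hsd11b2 (0.383 to 6.185 FPKM). The others stayed below 0.5 FPKM, with Aqp2 at 0 to 0.245 FPKM and Avpr2 at no more than 0.0193 FPKM. The 10 markers summed to 9.84 and 8.68 FPKM in Scr_300 and Scr_600, against 20.5 and 46.5 FPKM in Nfat5-KO_300 and Nfat5-KO_600. The higher sums came mainly through Gata3, so markers moved with genotype in the same libraries as the 10 genes. The part of the markers in the results was not tested. Summed endothelial markers were at most 0.193 FPKM and fibroblast markers at most 0.239 FPKM. Of 6 intercalated cell markers 1 passed the filter (sums 0.558 to 1.16 FPKM), and of 5 immune markers 2 did, mostly Cd68 (sums 1.96 to 2.75 FPKM). In such bulk values fewer cells of a kind and less RNA per cell cannot be told apart.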

How the data were processed

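Before mapping, the authors discarded reads of low quality and those with adapter or poly-N sequence. HISAT2 placed the read pairs on GRCm38, HTSeq counted them per gene, and the counts were divided by gene length and depth. They deposited FPKM, 1 value per gene and group, and the versions, the annotation release, the strand setting and the way libraries were combined are not given in the sources used here. Reads per library are unknown, so no interval, SD or p-value was calculated. Of 54828 named rows, 2425 without values, 311 exact duplicates and 37 symbols with several rows were left out, which left 52015 genes.

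Differences are log2 ratios of FPKM + 0.1 over genes that reached 0.5 FPKM in 1 or both of the groups compared, and those of 1.5-fold or more were counted. The calculation was tested on simulated data. The members and gene lists were chosen with earlier results of these data known. Genes named are the 10 members, Nfat5, Arnt, Egln2, Hif1an, Bnip3l, other listed HIF genes that differed 2-fold with at least 1 FPKM, and for members spanning 1 log2 unit the 3 nearest profiles. Of the listed targets, 1 that meets this rule is not reported here. Overlaps used GENCODE M21, copies minimap2 2.31-r1302 (at least 90% identity over 200 bases), promoters RefSeq GRCm38.p6 (250 bases before to 50 after the start). Python 3.11.15, numpy 2.4.6 and pandas 2.3.3 were used. The pseudocount (1 and 0.01), the filter (none, or a mean of 1 FPKM over the groups compared) and the scaling (median of ratios) were varied.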

Additional observations from a re-analysis of the deposited data

Results flagged for a closer look

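Ddit4 stood out because its response to hypertonicity had opposite signs in the 2 genotypes. The log2 ratio of hypertonic to isotonic was 0.80 in Scr and -0.31 in Nfat5-KO cells, and Nfat5-KO minus Scr was -1.11. With 1 value per group the difference was not tested, and 508 of 13414 genes (3.79%) had responses of opposite sign that differed by at least 1 log2 unit. Of all genes, 2.48% had a lower difference than Ddit4.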

How the results depend on the processing

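A filter decides which genes enter and leaves the ratio of a gene as it is. The 40 member values without a filter and the 36 with a mean of at least 1 FPKM therefore could not move. Of 236 member values under the alternatives, these included, 230 kept their side of 1.5-fold. The sign changed for 2, both under 1.5-fold and both with the median of genes within 10 Mb subtracted, namely Hif1a at 300 mosmol/kg (0.12 to -0.16) and Vhl at 600 mosmol/kg (0.03 to -0.17), each in Nfat5-KO against Scr. With a pseudocount of 1, Epas1 and Vegfa in Nfat5-KO_600 against Nfat5-KO_300 came to 0.43 and 0.55, under 1.5-fold, the medians at 600 mosmol/kg were -0.74 for the 10 genes and -1.18 for the targets, and the genes at least 1.5-fold higher and lower in Nfat5-KO numbered 300 and 357 at 300 mosmol/kg and 651 and 751 at 600 mosmol/kg, those higher and lower in Scr_600 numbered 785 and 661, and those higher in Nfat5-KO_600 than in Nfat5-KO_300 numbered 1008. Without a filter the corresponding counts were 1791, 1758, 3044, 2084, 2672, 2180 and 3641, and at 600 mosmol/kg the median of the other machinery was 0.19 and that of the other targets 0.043. With a mean of at least 1 FPKM the counts were 413 higher and 464 lower at 300 mosmol/kg, 839 higher at 600 mosmol/kg, 893 higher in Scr_600 and 1217 higher in Nfat5-KO_600 than in Nfat5-KO_300, and the members' medians were -0.96 between genotypes at 600 mosmol/kg and -0.55 for hypertonicity in Nfat5-KO cells, since Epas1 left the set. Fewer or more low genes enter under these settings by construction. Scaling moved Hif1a in Scr_600 against Scr_300 from 0.58 to 0.63, past 1.5-fold. An alternative chosen after seeing the data, the median of genes within 10 Mb subtracted, brought Hif1a past 1.5-fold at 600 mosmol/kg (-0.72) and in Scr_600 against Scr_300 (0.66), and Epas1 in the latter (0.64). No paired analysis was possible because the deposited columns carry 1 value per group, and for the same reason no library could be left out.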

Other observations

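The genes around Hif1a and Vhl differed between genotypes. The median log2 ratio of Nfat5-KO to Scr over genes within 10 Mb of Hif1a was 0.28 at 300 and 0.33 at 600 mosmol/kg, beside -0.00 and -0.02 for all genes, while Hif1a itself was at 0.12 and -0.39. Around Vhl the medians were 0.18 and 0.20. For the other 8 members the neighbourhood medians lay between -0.19 and 0.02 in these comparisons. Chromosome number in the clones was not tested.

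Paralogs of the members, chosen after their values were seen, did not follow them throughout. Vegfb had 37.7 and 26.6 FPKM in Scr_300 and Scr_600, against 22.1 and 26.7 FPKM in Nfat5-KO_300 and Nfat5-KO_600, so it exceeded Vegfa 11.0-fold, 3.23-fold, 16.2-fold and 10.8-fold in the same order. Ndrg3 had 10.4, 15.4, 9.03 and 13.4 FPKM and was higher in both hypertonic groups, where Ndrg1 was lower. Ndrg4 lay between 0.717 and 0.783 FPKM, and Vegfc, Vegfd, Pgf, Ddit4l and Ndrg2 stayed below 0.5 FPKM.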
